A study of Mus musculus with 12 samples.

Results

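The genes described here are the Hox genes of the mouse, the homeobox genes that lie in the clusters HoxA, HoxB, HoxC and HoxD on chromosomes 6, 11, 15 and 2. They were taken as the probe sets whose only gene symbol is a Hox cluster letter with a paralogue number, with the probe set of highest mean log2 intensity standing for a gene that had several. This gave 36 genes out of 22180 genes on the array with an unshared probe set, with 9 in HoxA, 10 in HoxB, 9 in HoxC and 8 in HoxD. The reference gene table lists 39 Hox genes, and the other 3 are without such a probe set and were not tested. All 36 genes passed the filter on low values, described under processing, which left 17860 genes in the tests.

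The cells were mouse embryonic fibroblasts (MEFs) from E13.5 embryos of a mixed strain, C57Bl/6 and 129X1/SvJ, with the genotype Col1a1::tetOP-OKSM ; R26-M2rtTA. Such cells carry a cassette with Oct4, Klf4, Sox2 and c-Myc (OKSM) that doxycycline switches on through a transactivator made from the Rosa26 locus. All 4 groups of 3 arrays shared that genotype, ESC medium with serum and LIF, doxycycline and a retroviral hairpin, and they differed in the hairpin, against Chaf1a of the CAF-1 histone chaperone or against Renilla luciferase, and in the time, day 3 or day 6. No group without doxycycline or without a virus was analysed here, so day 3 is the earliest level in these data. The labels do not state that the 3 arrays of a group came from separate embryos or cultures, and the p-values therefore measure only the spread between these samples, which may be technical.

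Hox genes encode homeodomain transcription factors that give cells their position along the head to tail axis and along the limb. Genes at the low-numbered end of a cluster act in the hindbrain and the neck, those in the middle act in the trunk, and those at the high-numbered end act in the lumbar and tail region, the limb tips and the genital tract. Genes of the same number in different clusters are paralogues. Fibroblasts keep a part of the Hox code of the place they came from, and pluripotent cells hold most Hox genes silent under Polycomb marks. Fibroblasts of a whole embryo are a mixture of cells with different codes, so in these bulk samples fewer cells of a type and less RNA per cell cannot be told apart.

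The targeted transcript and the cell type markers gave the following values for the series as a whole. Chaf1a stood at 7.53 ± 0.17 (log2 intensity, mean ± SD, n = 3) in day 3 control arrays and 7.24 ± 0.09 in day 3 knockdown arrays, a log2 fold change of -0.29 (SE 0.09) that did not pass limma's test (adjusted p = 0.726), and at day 6 the change was -0.12 (adjusted p = 0.999). The day 3 knockdown arrays all lay below the day 3 controls, as for 5.59% of all genes, and the day 6 arrays overlapped. With arrays paired by replicate number, the knockdown array was the lower in each pair on both days. Between the days Chaf1a changed by -0.30 in control cells, which passed (limma adjusted p = 0.0419), and by -0.14 in knockdown cells (adjusted p = 0.366). Of the 10 fibroblast markers measured, 8 lay above the array median on every array, while Lum lay below it on every array. The fibroblast marker mean ranged over 9.21 to 9.37 on day 3 arrays and over 9.29 to 9.71 on day 6 arrays. The mean of 6 epithelial markers was 5.60 to 5.87 at day 3, 5.99 to 6.06 in day 6 controls and 6.50 to 6.51 in day 6 knockdown arrays. The mean of 7 pluripotency markers was 5.0 to 5.14 at day 3, 5.17 to 5.18 in day 6 controls and 5.46 to 5.60 in day 6 knockdown arrays. Esrrb, Dppa5a and Zfp42 of this list lay below the array median on every array. At day 6 the group means of Nanog, Sall4, Esrrb, Zfp42 and Utf1 were higher in knockdown than in control arrays. Those of Dppa4 (5.84 against 6.00) and Dppa5a were lower. The mean of 5 macrophage markers lay in 5.54 to 5.82 (day 3) and 5.11 to 5.30 (day 6), and Ptprc, Adgre1 and Csf1r lay below the array median on every array. In control cells the group mean of Cd68 was 8.90 at day 3 and 7.70 at day 6, and that of Lyz2 was 5.58 and 4.72. Adgre1 and Csf1r were also lower at day 6, and Ptprc was higher. The endothelial marker mean lay in 6.26 to 6.40 on day 3 arrays and in 6.59 to 6.76 on day 6 arrays, neural markers lay in 5.62 to 5.96 (day 3) and 5.51 to 5.73 (day 6), and muscle markers stayed between 5.93 and 6.02. Of the neural markers, Tubb3 (7.32 and 6.36) and Map2 (7.51 and 6.94) were lower at day 6 in control cells. Sox10, Sox1 and Pax6 were higher there. The endothelial markers did not move alike. In control cells the group mean of Kdr was 5.86 at day 3 and 6.86 at day 6, and Cdh5 and Tie1 were also higher at day 6. Pecam1 was 5.47 on both days, and Tek was 10.05 and 9.89. The epithelial and pluripotency markers did not move alike in control cells either. Cdh1 was 6.70 at day 3 and 7.67 at day 6, and Epcam, Krt8 and Cldn7 were also higher at day 6. Krt18 (6.32 and 6.31) and Cldn4 (5.60 and 5.58) were not. Dppa4 was 5.43 and 6.00, and Utf1, Sall4 and Dppa5a were also higher at day 6. Nanog (5.61 and 5.57), Esrrb and Zfp42 were lower.

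Promoter sequences are shown for the Hox genes with the 3 largest rises between the days in control cells and for Hoxb4, which fell in knockdown cells, to set members that moved in opposite directions side by side. In knockdown cells Hoxa6 and Hoxd8 rose more than Hoxa9. Hoxb6 and Hoxc5 fell more than Hoxb4 there, but no promoter sequence was available for them. In control cells Hoxb4 did not pass in the unblocked fit. Each is the RefSeq sequence of 300 bases around the gene's start, most of them upstream, in build GRCm38.p6, 5′ to 3′ along the gene's strand. Capitals mark a match to one of the 7 motifs that were searched on both strands. Hoxa2 is shown for chr6:52164782-52165081 (minus strand), Hoxa9 for chr6:52227321-52227620 (minus strand), Hoxa10 for chr6:52234890-52235189 (minus strand) and Hoxb4 for chr11:96318017-96318316 (plus strand).
Hoxa2: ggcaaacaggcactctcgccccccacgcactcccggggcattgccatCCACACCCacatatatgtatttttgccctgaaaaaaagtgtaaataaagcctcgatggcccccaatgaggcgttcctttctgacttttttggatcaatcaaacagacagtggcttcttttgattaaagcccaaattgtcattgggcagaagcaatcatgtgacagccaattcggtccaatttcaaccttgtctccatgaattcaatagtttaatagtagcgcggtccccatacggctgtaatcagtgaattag
Hoxa9: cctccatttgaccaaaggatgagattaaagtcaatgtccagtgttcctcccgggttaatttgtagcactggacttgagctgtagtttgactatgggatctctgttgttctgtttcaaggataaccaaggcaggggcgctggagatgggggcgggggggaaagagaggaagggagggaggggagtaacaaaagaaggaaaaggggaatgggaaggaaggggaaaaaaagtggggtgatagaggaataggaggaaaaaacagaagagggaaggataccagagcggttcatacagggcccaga
Hoxa10: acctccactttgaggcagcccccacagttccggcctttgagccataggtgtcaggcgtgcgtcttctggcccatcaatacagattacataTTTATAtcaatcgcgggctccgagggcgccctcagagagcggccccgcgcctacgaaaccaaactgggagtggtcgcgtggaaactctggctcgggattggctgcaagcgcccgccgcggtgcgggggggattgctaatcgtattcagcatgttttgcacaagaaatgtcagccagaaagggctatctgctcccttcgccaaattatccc
Hoxb4: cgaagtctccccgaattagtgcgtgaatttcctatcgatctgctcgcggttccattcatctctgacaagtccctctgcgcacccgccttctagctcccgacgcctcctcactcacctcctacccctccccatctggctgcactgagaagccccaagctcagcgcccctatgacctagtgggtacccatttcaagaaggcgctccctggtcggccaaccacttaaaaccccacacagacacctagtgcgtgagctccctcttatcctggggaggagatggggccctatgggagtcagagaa

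The capitals in Hoxa2 are the reverse complement of the Klf4 site GGGTGTGG, which 3.562% of the 32851 promoters in the table hold, and those in Hoxa10 are the reverse complement of the TATA box TATAAA, which 13.62% hold. The Hoxa9 and Hoxb4 windows held none of the motifs. Hoxa10 has another promoter in the table (chr6:52240805-52241104, minus strand), which held none of the motifs either. It has 12 CpG dinucleotides against 21 in the one shown, which was picked for having more. The table has 24 promoters for 22 Hox genes. From HoxB it holds only Hoxb1, Hoxb4 and Hoxb8 and from HoxC only Hoxc4, so the clusters cannot be compared. Among the 24, 0 held the Oct4 octamer ATGCAAAT (1.735% of all promoters), 0 held the Sox core CATTGT (12.57%) and 0 held the retinoic acid element DR5, a repeat of AGGTCA with 5 letters between (0.009%). The TATA box was found for Hoxa10, Hoxb8, Hoxd4 and Hoxd13. The E-box CACGTG, which 7.15% of all promoters hold, was found for Hoxd1, Hoxd4, Hoxd10, Hoxd11 and Hoxd13. The homeodomain site TAATTA, which 5.291% of all promoters hold, was found in both promoters of Hoxd11. A Hox promoter had a median of 14.5 CpG dinucleotides and a median GC content of 57.7%, against 7 and 52.7% over all promoters. The DR5 stood in only 3 of all 32851 promoters, so finding 0 in 24 windows says nothing about retinoic acid input. These matches describe the letters of the windows and are not evidence of binding, and a missing match is not evidence against it.

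Between day 3 and day 6 in the control cells, 6 Hox genes rose and all of them belong to HoxA. They are Hoxa2, Hoxa5, Hoxa6, Hoxa7, Hoxa9 and Hoxa10, which rose by 1.19-fold to 1.60-fold. With the replicate number as a block 8 Hox genes passed, and the calls then also held Hoxd8, which was higher at day 6 (0.30, limma adjusted p = 0.0283), and Hoxb4, which was lower (-0.22, adjusted p = 0.0354). The count is 6 of 36 genes, or 16.7%, and 17.6% of all genes tested were called in the same comparison, so the share of Hox genes called was near the background. The direction was uneven, with 6 Hox genes higher and 0 lower while 6.99% of all genes were called higher and 10.6% lower. The arrays of the 2 days did not overlap for 11 Hox genes (30.6%), against 35.3% of all genes, with 10 of the 11 higher at day 6, against 16% of all genes higher and 19.3% lower. Without the adjustment for multiple tests, 11 Hox genes had a p under 0.05, 8 higher and 3 lower, against 30% of all genes.

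Hoxa2, which sets the identity of the pharyngeal arch behind the jaw and of part of the hindbrain, rose in both hairpin groups. In control cells its log2 intensity was 6.68, 6.58 and 6.72 at day 3 and 7.39, 7.35 and 7.20 at day 6, and in knockdown cells it was 6.84, 6.67 and 6.43 at day 3 and 7.18, 7.26 and 7.16 at day 6. Every day 6 array lay above every day 3 array. The log2 fold change was 0.65 (SE 0.09, limma adjusted p = 0.00065) in control cells and 0.55 (SE 0.09, adjusted p = 0.00168) in knockdown cells. The call stood in all 15 fits that left out arrays and all 11 other alternatives in both hairpin groups.

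Hoxa10, a factor of the lumbar region and of the uterus, had the largest fitted rise of the Hox genes in control cells. Its values were 5.98, 5.92 and 5.92 at day 3 and 6.86, 6.65 and 6.34 at day 6 in control cells, and 5.92, 6.08 and 5.90 against 6.78, 6.45 and 6.27 in knockdown cells. The days did not overlap, and the day 6 arrays were more spread (SD 0.26 and 0.25) than the day 3 arrays (SD 0.04 and 0.10). The log2 fold change was 0.67 (SE 0.13, adjusted p = 0.00451) and 0.53 (SE 0.13, adjusted p = 0.0157). Without replicate 2 of every group the rise in control cells was 0.64 and its adjusted p was 0.0935. In knockdown cells the call was lost without day 3 replicate 1 (0.51, adjusted p = 0.0515), day 6 replicate 1 (0.40, 0.0565), day 3 replicate 3 (0.50, 0.0554), replicate 1 of every group (0.37, 0.0868) or replicate 2 of every group (0.61, 0.094).

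Hoxa9, which drives the growth of blood progenitors and is a known leukaemia factor, rose in both groups. The control values were 6.82, 6.90 and 6.57 at day 3 and 7.33, 7.33 and 7.15 at day 6, and the knockdown values were 6.76, 6.83 and 6.80 at day 3 and 7.08, 7.17 and 7.20 at day 6. The lowest day 6 array lay above the highest day 3 array in each group. The log2 fold change was 0.50 (SE 0.09, adjusted p = 0.00179) in control cells, a call that stood under every alternative run. In knockdown cells it was 0.36 (SE 0.09, adjusted p = 0.0122), and leaving out replicate 1, 2 or 3 of every group raised the adjusted p to 0.0751, 0.0772 and 0.0581, at log2 fold changes of 0.37, 0.37 and 0.33.

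Hoxa6 and Hoxa5, both factors of the lower neck and the chest, and Hoxa5 also of the lung, rose in both groups. Hoxa6 was 8.40, 8.12 and 8.43 at day 3 and 8.83, 8.82 and 8.71 at day 6 in control cells, and 8.41, 8.34 and 8.09 against 8.67, 8.87 and 8.64 in knockdown cells. The days did not overlap, and its log2 fold change was 0.47 (SE 0.10, adjusted p = 0.00845) in control cells and 0.45 (SE 0.10, adjusted p = 0.0104) in knockdown cells. The Hoxa6 call in control cells was lost without replicate 1 of every group (0.49, adjusted p = 0.0522) or replicate 2 (0.35, 0.104), and that in knockdown cells without replicate 2 (0.41, 0.0621) or replicate 3 (0.39, 0.0855). Hoxa5 was 7.35, 7.32 and 7.47 at day 3 and 7.85, 7.74 and 7.61 at day 6 in control cells, and 7.47, 7.18 and 7.21 against 7.68, 7.52 and 7.54 in knockdown cells. Its days did not overlap either, by a small margin in knockdown cells. The Hoxa5 change was 0.35 (SE 0.09, adjusted p = 0.0191) and 0.30 (SE 0.09, adjusted p = 0.0400). This call was fragile. In control cells it was lost without day 3 replicate 1 (0.34), day 6 replicate 1 (0.29), day 3 replicate 2 (0.32) or day 6 replicate 2 (0.35), and without replicate 1 (0.28), 2 (0.32) or 3 (0.46) of every group. In knockdown cells it was lost in 9 of the 15 fits that left out arrays, at 0.24 to 0.33. Those were the fits without knockdown day 3 replicates 2 or 3, knockdown day 6 replicates 1, 2 or 3, control day 3 replicate 1 or control day 6 replicate 2 alone, and without replicates 2 or 3 of every group. It was also lost in knockdown cells with arrays centred on their median (adjusted p = 0.0799), with only the groups compared in the fit (0.0745) and with all probe sets fitted (0.0736).

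Hoxa7, a trunk factor, passed the test in control cells and not in knockdown cells. It was 8.40, 8.49 and 8.41 at day 3 and 8.64, 8.82 and 8.58 at day 6 in control cells, and 8.34, 8.42 and 8.45 against 8.51, 8.49 and 8.49 in knockdown cells. The days did not overlap in either group, and the knockdown arrays moved less. The log2 fold change was 0.25 (SE 0.07, adjusted p = 0.0254) in control cells and 0.09 (SE 0.07, adjusted p = 0.395) in knockdown cells, and the test of the difference gave -0.15 (SE 0.10, adjusted p = 0.99). The control call was lost without day 3 replicate 1 (0.23), day 6 replicate 2 (0.18), day 3 replicate 3 (0.23) or any replicate number (0.20 to 0.28), and with each array centred on its median (0.20, adjusted p = 0.124) or only the groups compared in the fit (0.25, 0.0697).

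**Figure D1:**
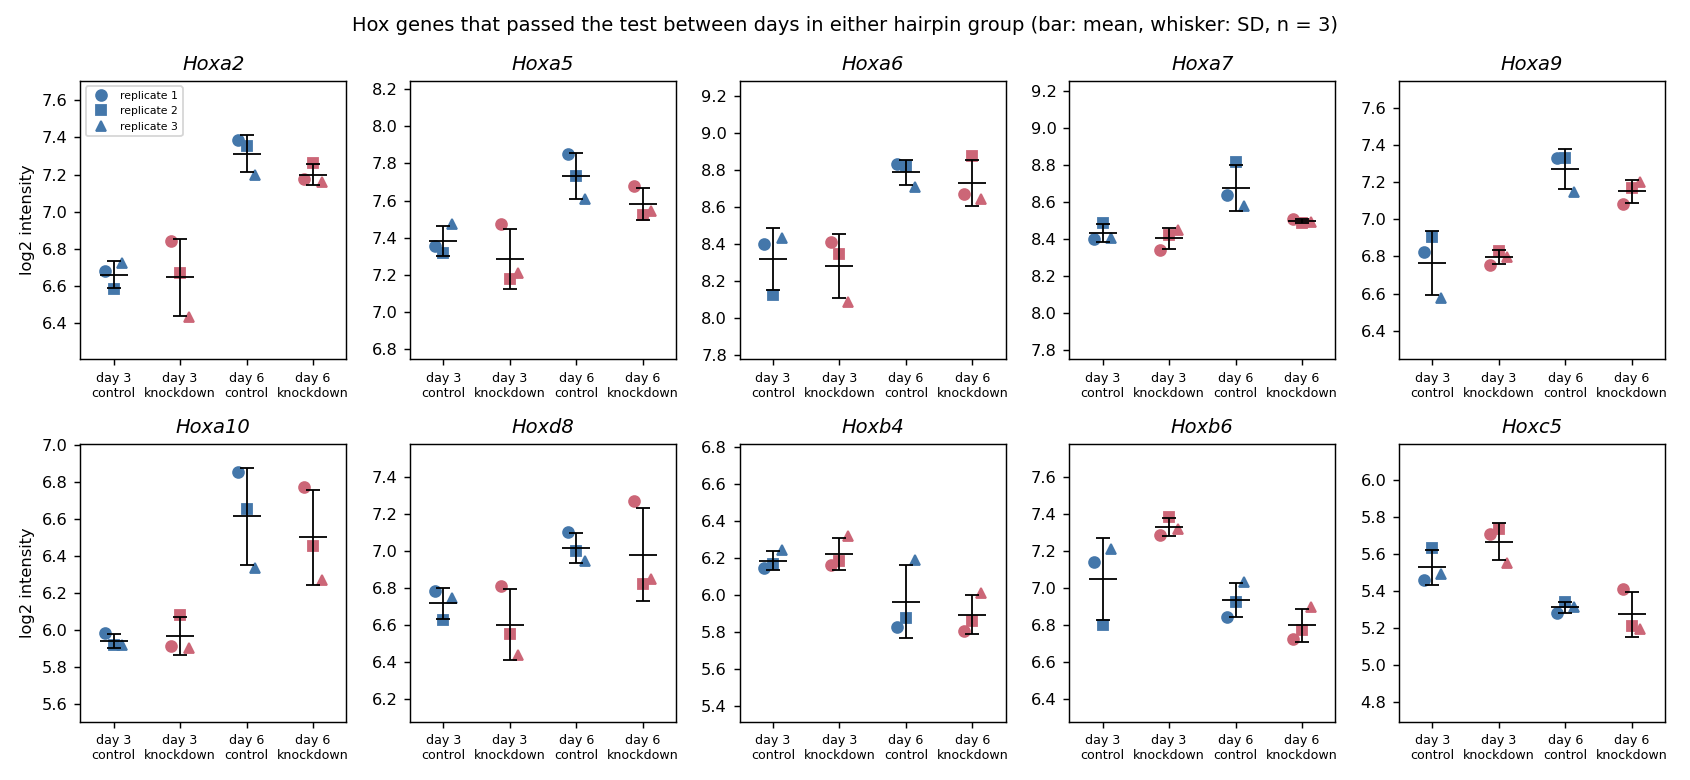
Log2 intensity of the 10 Hox genes that passed the test between the days in control or knockdown cells, by group, with 3 arrays per group. Blue marks control and red marks knockdown arrays, symbols mark replicate numbers, bars are means and whiskers are SDs, and each axis spans the same number of log2 units but starts at a different level. The HoxA genes and Hoxd8 are higher at day 6, while Hoxb4, Hoxb6 and Hoxc5 are lower at day 6 in knockdown cells.

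The other HoxA genes moved less. Hoxa3, which acts in the thymus and parathyroid glands, changed by 0.16 in control cells and 0.00 in knockdown cells, Hoxa4 by -0.12 and 0.05, and Hoxa13, a factor of the digits and the genital tract, by 0.11 and 0.04. None of these passed the test. The median log2 fold change of the 9 HoxA genes was 0.35 in control cells and 0.30 in knockdown cells, against 0.01 over all genes in each comparison, and over all settings run it ranged from 0.28 to 0.46 and from 0.24 to 0.34. The mean of the HoxA genes on each array, after each gene's mean over the 12 arrays was subtracted, lay between -0.24 and -0.11 on day 3 arrays, between 0.07 and 0.27 on day 6 control arrays and between 0.03 and 0.14 on day 6 knockdown arrays. Replicate 3 was the lowest of the HoxA means in each of the 4 groups. The epithelial, pluripotency, macrophage and endothelial marker means given above did not overlap between the days in either hairpin group, and those of the fibroblast and neural markers did not overlap in control cells and overlapped in knockdown cells. Within most of these lists some members went the other way in control cells, as given above. The part of the markers in these changes was not tested.

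**Figure D2:**
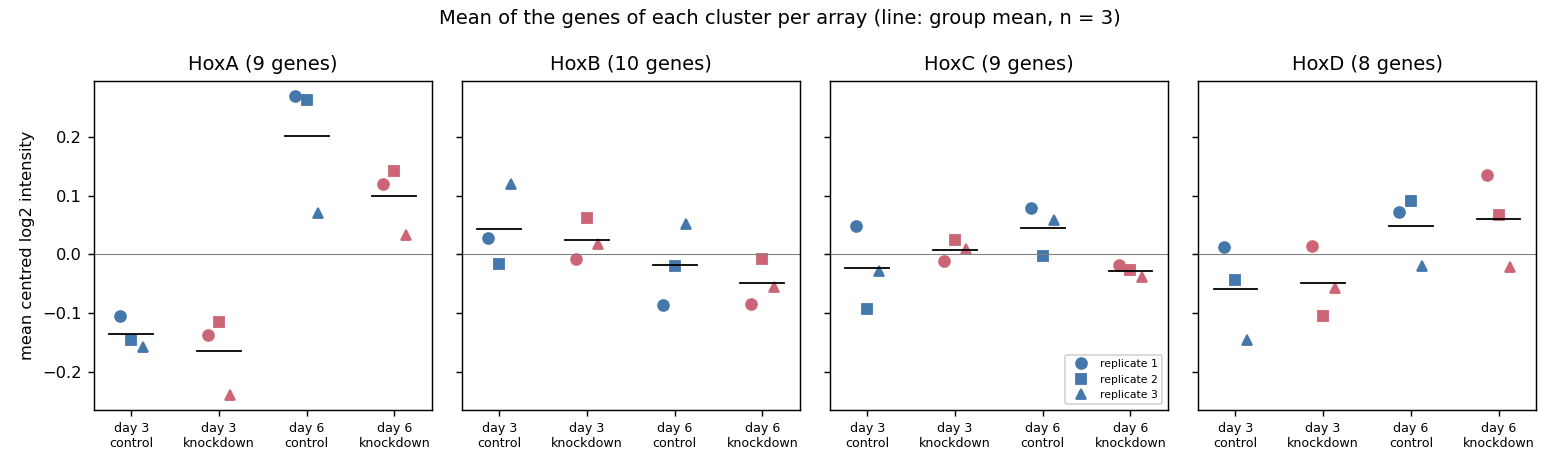
Mean over the genes of a cluster of the log2 intensity after each gene's mean over the 12 arrays was subtracted, by array, with 1 panel per cluster. Blue marks control and red marks knockdown arrays, symbols mark replicate numbers and lines are group means of 3 arrays. HoxA arrays lie between -0.24 and -0.11 at day 3 and between 0.03 and 0.27 at day 6, while the arrays of the other clusters overlap between the days within each hairpin group except for HoxC in knockdown cells.

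In knockdown cells, 9 Hox genes passed the test between day 3 and day 6, of which 6 rose and 3 fell. Hoxa2, Hoxa5, Hoxa6, Hoxa9 and Hoxa10 rose here and in control cells, Hoxd8 rose, and Hoxb4, Hoxb6 and Hoxc5 fell. The share called was 25%, against 17.9% of all genes, with 7.46% of all genes called higher and 10.5% lower. The arrays of the 2 days did not overlap for 14 Hox genes (38.9%), against 34.3% of all genes, with 11 higher and 3 lower at day 6, against 15.4% and 18.9%. Before adjustment 12 Hox genes had a p under 0.05, against 30.5% of all genes. No array is shared between the comparison in control cells and that in knockdown cells. The test of the difference between them passed for 0 of the 36 genes, with 0% of all genes called, and 1 Hox gene and 5.10% of all genes had an unadjusted p under 0.05.

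Hoxb6, a gene of the trunk and the lateral plate mesoderm, had the largest fall. In knockdown cells its log2 intensity was 7.29, 7.39 and 7.32 at day 3 and 6.73, 6.78 and 6.90 at day 6. In control cells it was 7.14, 6.80 and 7.21 at day 3 and 6.85, 6.93 and 7.03 at day 6. The knockdown arrays of the 2 days were well apart, while the control arrays overlapped, with replicate 2 the lowest of the day 3 controls. The log2 fold change was -0.53 (SE 0.10, adjusted p = 0.00276) in knockdown cells, a call that stood under every alternative run, and -0.12 (SE 0.10, adjusted p = 0.479) in control cells. The difference of these changes was -0.41 (SE 0.14, 95% interval -0.72 to -0.11), with an unadjusted p of 0.0108 and an adjusted p of 0.918, so a difference between the hairpins was not shown.

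Hoxc5 and Hoxb4 also fell in knockdown cells. Hoxc5 was 5.71, 5.74 and 5.55 at day 3 and 5.41, 5.21 and 5.20 at day 6 in knockdown cells, and 5.46, 5.63 and 5.49 against 5.28, 5.34 and 5.32 in control cells. The days did not overlap in either group, these values lay near the array medians of 5.30 to 5.44, and the change was -0.39 (SE 0.08, adjusted p = 0.00397) in knockdown cells and -0.21 (SE 0.08, adjusted p = 0.0769) in control cells. Without replicate 2 or replicate 3 of every group the knockdown change was -0.33 (adjusted p = 0.077) and -0.41 (adjusted p = 0.0533). Hoxb4, a factor that expands blood stem cells, was 6.16, 6.19 and 6.32 at day 3 and 5.81, 5.86 and 6.01 at day 6 in knockdown cells, and 6.15, 6.17 and 6.24 against 5.83, 5.88 and 6.19 in control cells. Its days overlapped only in control cells, through the day 6 replicate 3. The Hoxb4 change was -0.33 (SE 0.09, adjusted p = 0.0285) in knockdown cells and -0.22 (SE 0.09, adjusted p = 0.128) in control cells. With the replicate number as a block the control change passed too (-0.22, adjusted p = 0.0354). The knockdown call was lost without knockdown day 6 replicate 1 (-0.28) or 2 (-0.31), knockdown day 3 replicate 2 (-0.34) or 3 (-0.28), and without replicate 1 (-0.31) or 2 (-0.33) of every group, and with all probe sets fitted (-0.33, adjusted p = 0.0561).

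Hoxd8, a trunk factor, was the member outside HoxA that rose. It was 6.81, 6.55 and 6.44 at day 3 and 7.27, 6.82 and 6.85 at day 6 in knockdown cells, and 6.78, 6.63 and 6.75 against 7.10, 7.0 and 6.94 in control cells. The days did not overlap, by 0.01 or so in knockdown cells, where replicate 1 was the highest array on each day. The change was 0.38 (SE 0.12, adjusted p = 0.0467) in knockdown cells and 0.30 (SE 0.12, adjusted p = 0.115) in control cells, where it passed with the replicate block (adjusted p = 0.0283). The knockdown call was lost in 11 of the 15 fits that left out arrays. It was lost without knockdown day 6 replicate 1 (0.23), knockdown day 3 replicate 2 (0.35) or 3 (0.30), any 1 of the 6 control arrays (0.38), and replicate 2 (0.43) or 3 (0.36) of every group, with adjusted p up to 0.213. It was also lost without a low-value filter (adjusted p = 0.0547), with arrays centred on their median (0.0668), with only the groups compared in the fit (0.116) and with all probe sets fitted (0.087).

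The other members of HoxB, HoxC and HoxD did not pass the test between the days in either group. The 8 HoxB genes besides Hoxb4 and Hoxb6 changed by -0.26 (Hoxb9) to 0.11 (Hoxb1, a hindbrain factor) in control cells and by -0.12 (Hoxb3) to 0.14 (Hoxb1) in knockdown cells. Hoxb5 had 2 probe sets, which changed by 0.04 and 0.09 in control cells. HoxC included the brightest Hox probe set, Hoxc8, a gene of the lower chest and of brachial motor neurons, with 9.47, 9.41 and 9.22 at day 3 and 9.63, 9.58 and 9.42 at day 6 in control cells. Hoxc8 changed by 0.18 in each hairpin group, and with the replicate block the change passed in knockdown cells (adjusted p = 0.0482) and not in control cells (adjusted p = 0.0581). Hoxc6, Hoxc9 and Hoxc10 changed by 0.14, 0.07 and 0.20 in control cells and by -0.04, -0.08 and 0.03 in knockdown cells. In HoxD, Hoxd9 changed by 0.11 and 0.26 and passed only in knockdown cells with the replicate block (adjusted p = 0.0320). Hoxd13, a factor of the digits, had the widest interval, with -0.31 in knockdown cells and a 95% interval of -0.79 to 0.16.

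Seen along the paralogue numbers, the calls lay at positions 2 to 10. Of the 7 genes of paralogues 1 to 3, 1 rose in control cells and 1 in knockdown cells. Of the 14 genes of paralogues 4 to 8, 3 rose in control cells, while in knockdown cells 3 rose and 3 fell. Of the 15 genes of paralogues 9 to 13, 2 rose in each. Of all genes, 17.6% were called in control cells and 17.9% in knockdown cells, and with so few genes at a position these counts were not tested against those shares. At paralogue position 5 Hoxa5 rose and Hoxc5 fell in knockdown cells, and at position 6 Hoxa6 rose and Hoxb6 fell. The medians over all 36 genes were 0.10 in control cells and 0.07 in knockdown cells, HoxB stood at -0.06 and -0.01, HoxC at 0.07 and -0.04, and HoxD at 0.11 and 0.13.

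**Figure D3:**
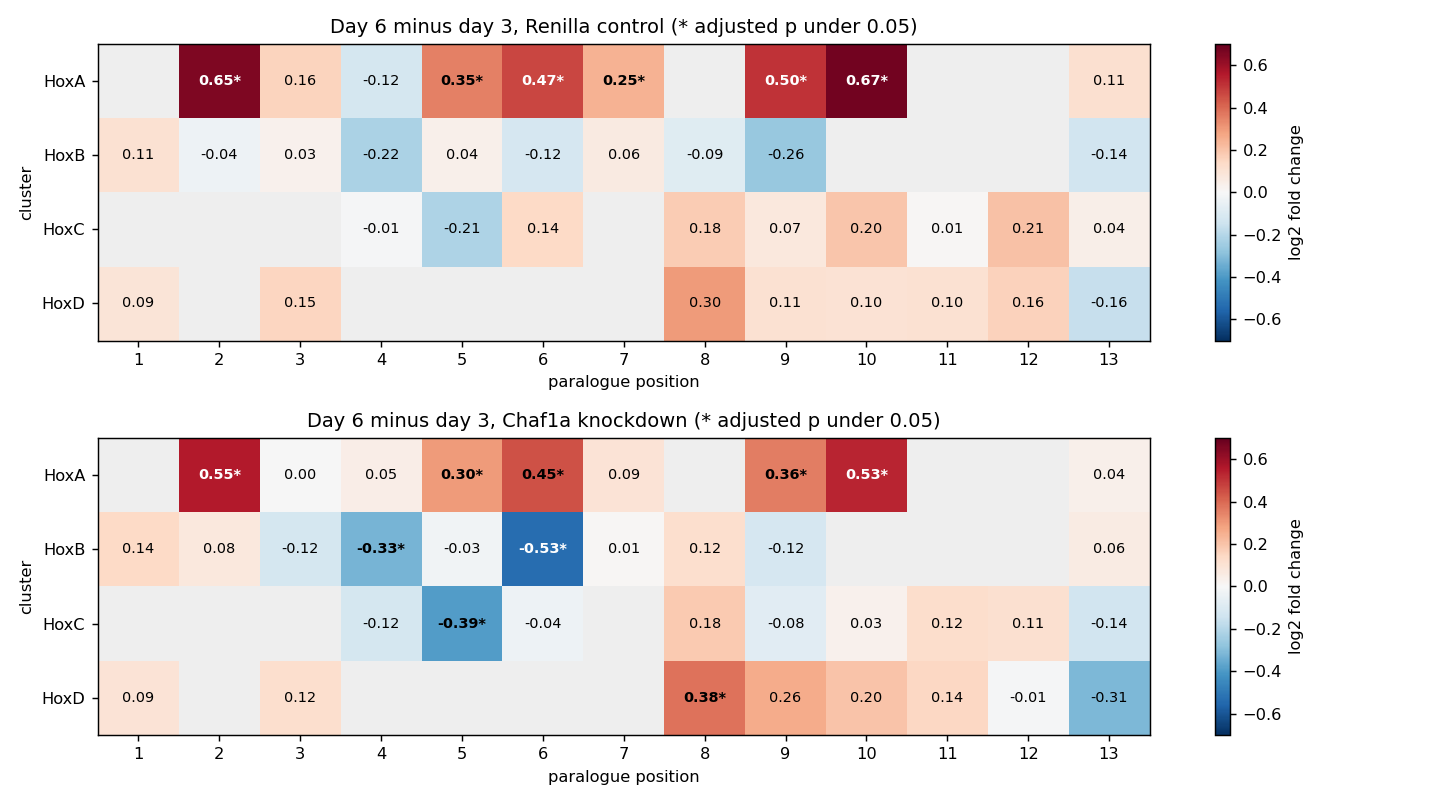
Log2 fold change of day 6 against day 3 for each Hox gene, by cluster (rows) and paralogue position (columns), in control cells (upper panel) and knockdown cells (lower panel), from fits on 3 arrays per group. Red is higher and blue is lower at day 6, a star marks an adjusted p under 0.05, and a grey cell has no Hox gene or none with a probe set of its own. The starred cells are 6 in control cells, all in HoxA, and 9 in knockdown cells.

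Probe sets that name a Hox gene together with another gene were fitted in a separate fit over all 30050 probe sets kept, in which 9.76% were called between the days in control cells and 10.4% in knockdown cells. The probe set of Hoxd4 and Hoxd3 rose by 0.58 in control cells (limma adjusted p = 0.042) and changed by 0.38 in knockdown cells (adjusted p = 0.165). Its signal cannot be divided between those genes, and the probe set of Hoxd3 alone changed by 0.15 and 0.12. Both probe sets of Hoxa11 and its antisense gene Hoxa11os changed upward without passing, by 0.19 and 0.34 in control cells and 0.05 and 0.18 in knockdown cells. The probe set of Hoxa7 and Mira changed by 0.35 in control cells (adjusted p = 0.069), that of Hoxa3 and 5730446D14Rik by 0.16 in control cells and 0.30 in knockdown cells, and that of Hoxb3 and Hoxb2 by -0.19 and 0.05, none of which passed. No probe set of this kind passed in the knockdown comparison at day 6, where 0.00998% of the probe sets did. The probe set of Hoxb4 and Mir10a was below the filter.

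RNA genes inside the Hox clusters did not pass the test. Of 19 such genes listed, 7 had a probe set of their own and 6 of these passed the filter, Mir10b being below it. Between the days 17.6% of all genes were called in control cells and 17.9% in knockdown cells. With only 6 genes tested, the lack of calls was not tested against those shares. Hoxaas3, an antisense RNA of HoxA, had 6.39, 6.07 and 6.31 at day 3 and 6.68, 6.49 and 6.41 at day 6 in control cells, which did not overlap, and its change was 0.27 (adjusted p = 0.0688), against 0.12 (adjusted p = 0.447) in knockdown cells. Hotair, a long RNA of the HoxC cluster that is known in human cells for a link to Polycomb, changed by -0.04 and 0.00. Mir196a-1 of HoxB and Mir196a-2 of HoxC give the same mature miRNA, which targets Hox messages. It is printed from RefSeq with its seed in capitals (build GRCm38.p6, chr11:96265187-96265208, plus strand, for Mir196a-1).
miR-196a-5p: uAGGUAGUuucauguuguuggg
The probe set of Mir196a-1 changed by -0.09 and -0.04 and that of Mir196a-2 by 0.11 and 0.24, and an array of this kind reads the precursor rather than the mature form.

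The knockdown comparisons found no Hox gene past the threshold. At day 3, 0 of 36 genes passed, with 0% of all genes called, and 1 Hox gene had an unadjusted p under 0.05, against 6.01% of all genes. The arrays of the hairpins did not overlap for 4 Hox genes (11.1%), against 10.8% of all genes. Of these, 2 were higher (Hoxb6 and Hoxd11) and 2 lower (Hoxa13 and Hoxd1), against 5.21% and 5.59% of all genes. At day 6, 0 of 36 passed, against 0.0392% of all genes, 2 had an unadjusted p under 0.05, against 4.44%, and 5 did not overlap (13.9%), against 10.6%. Of the 5, Hoxd10 and Hoxd11 were higher and Hoxa7, Hoxb7 and Hoxc6 lower, against 5.0% and 5.57% of all genes. With the knockdown effect averaged over both days 0 of 36 passed, with 0% of all genes called, and 4 had an unadjusted p under 0.05, against 5.54%. With the replicate block the counts of Hox genes passing were 0 as well. The 95% intervals, not adjusted for multiple tests, reached from -0.46 to 0.58 at day 3 and from -0.52 to 0.43 at day 6. The median interval was 0.20 to each side of the value. With 3 arrays per group larger values also went uncalled, such as Hoxb6 at day 3 (0.28, limma adjusted p = 0.726). The 0.20 is therefore not the smallest change the adjusted test could call.

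The members with the smallest p in these comparisons are given without having passed. Hoxd11, which acts in the forearm and the kidney, was 5.08, 5.07 and 5.07 in day 3 controls and 5.21, 5.19 and 5.17 in day 3 knockdown arrays, and 5.17, 5.24 and 5.13 against 5.35, 5.38 and 5.28 at day 6. The knockdown arrays lay above the controls on each day without overlap, at levels near or under the array medians of 5.30 to 5.44. The change was 0.12 at day 3 (SE 0.05, adjusted p = 0.828), 0.16 at day 6 (SE 0.05, adjusted p = 0.995) and 0.14 over both days (SE 0.04, adjusted p = 0.574). Hoxb6 was higher in the knockdown arrays at day 3 by 0.28 (SE 0.10, adjusted p = 0.726) and did not overlap with the controls, while at day 6 the value was -0.13. Hoxc5 differed by 0.14 at day 3 (adjusted p = 0.861) with overlapping arrays.

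At day 6, Hoxa7 stood at 8.64, 8.82 and 8.58 in control and 8.51, 8.49 and 8.49 in knockdown arrays, a change of -0.18 (SE 0.07, adjusted p = 0.996). Hoxb7 was 6.32, 6.37 and 6.52 against 6.18, 6.24 and 6.31 at day 6, and 6.32, 6.26 and 6.45 against 6.14, 6.32 and 6.23 at day 3. Each of the 3 knockdown arrays was below the 3 controls at day 6 for both genes, by a narrow margin for Hoxb7. The Hoxb7 change was -0.16 at day 6 (SE 0.08, adjusted p = 0.999) and -0.14 over both days (SE 0.05, adjusted p = 0.839). Hoxd1 was 4.37, 4.47 and 4.40 in day 3 controls and 4.20, 4.35 and 4.32 in day 3 knockdown arrays, and 4.49, 4.47 and 4.56 against 4.43, 4.47 and 4.25 at day 6. These levels were near the filter, whose percentile lay at 4.30 to 4.38, and the change over both days was -0.12 (SE 0.05, adjusted p = 0.862).

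Taken as counts, 18 of 36 Hox genes had a positive knockdown value at day 3 and 8 of 36 at day 6, with medians of -0.01 and -0.07, while 8172 and 8244 of all 17860 genes were positive with a median of -0.01 on each day. The day 6 median stayed below 0 under all 27 settings, from -0.09 to -0.04 with 5 to 13 genes positive, whereas the day 3 median changed sign between settings, from -0.05 to 0.01. At day 6, 1 of 9 HoxA, 4 of 10 HoxB, 0 of 9 HoxC and 3 of 8 HoxD genes were positive, with medians of -0.12, -0.05, -0.08 and -0.03. Genes of a cluster are not independent of each other, and the epithelial and pluripotency marker means were higher in the day 6 knockdown arrays than in the controls, as given above, and their part in these values was not tested.

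**Figure D4:**
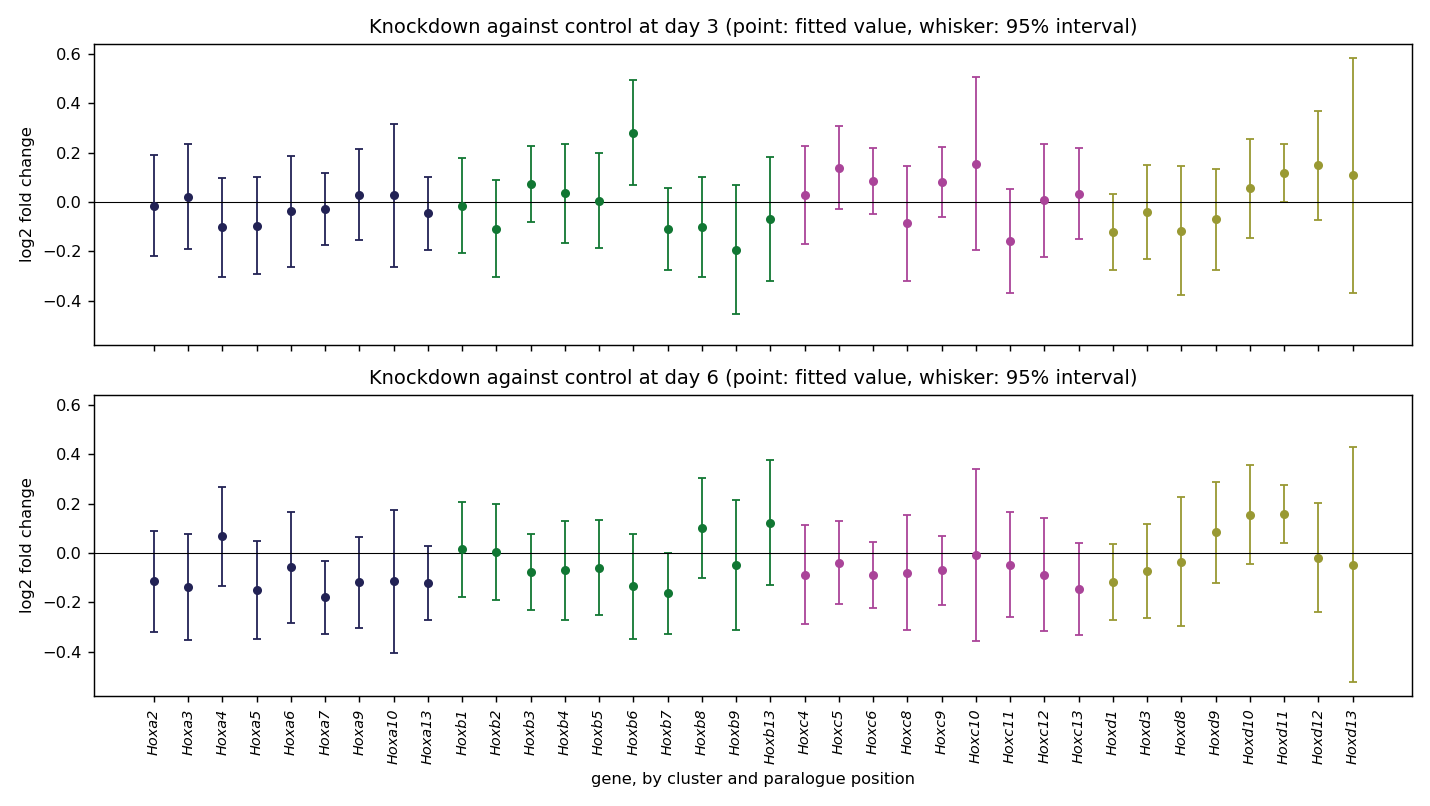
Log2 fold change of knockdown against control with its 95% interval for each of the 36 Hox genes at day 3 (upper panel) and day 6 (lower panel), from fits on 3 arrays per group, coloured by cluster. The interval leaves out 0 for Hoxb6 at day 3 and for Hoxd11 and Hoxa7 at day 6, and no gene passed the adjusted threshold on either day.

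The Hox partners Meis1, Meis2 and Pbx3 rose between the days. Of 8 cofactors of the Pbx, Meis and Pknox families tested, which bind DNA together with Hox factors, 3 rose and 0 fell in each hairpin group, with medians of 0.08 and 0.16, while of all genes 6.99% were called higher and 10.6% lower in control cells and 7.46% and 10.5% in knockdown cells. Meis1 was 8.45, 8.35 and 8.34 at day 3 and 8.99, 9.05 and 8.80 at day 6 in control cells, and 8.44, 8.45 and 8.30 against 9.03, 8.88 and 8.82 in knockdown cells. The days were well apart, and Meis1 rose by 0.57 (adjusted p = 0.000589) and 0.51 (adjusted p = 0.00102). Meis2 rose by 0.37 (adjusted p = 0.00353) and 0.45 (adjusted p = 0.000964), and Pbx3 by 0.44 (adjusted p = 0.00206) and 0.34 (adjusted p = 0.00921). Without replicate 2 of every group, Meis2 and Pbx3 no longer passed in control cells (0.36 and 0.44) and Pbx3 in knockdown cells (0.32), where it also did not pass without replicate 1 (0.34).

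Retinoic acid is a signal that switches on Hox genes in the embryo. Of 17 genes of its receptors, synthesis and breakdown that were tested, 1 rose and 2 fell in control cells and 1 rose and 3 fell in knockdown cells, near the 17.6% and 17.9% of all genes called. Crabp2, which carries retinoic acid to its receptors, was 9.33, 9.56 and 9.48 at day 3 and 8.95, 8.87 and 8.71 at day 6 in control cells. It fell by 0.61 on the log2 scale (adjusted p = 0.000552) in control cells and by 0.65 (adjusted p = 0.000333) in knockdown cells. Aldh1a1, an enzyme that makes retinoic acid, fell by 0.61 (adjusted p = 0.00189) and 0.58 (adjusted p = 0.00218), the latter not without replicate 3 of every group (-0.51). A link between the genes of this list and the Hox changes was not tested. Cyp26b1, which breaks retinoic acid down, changed by -0.25 (adjusted p = 0.084) in control cells and fell by 0.36 (adjusted p = 0.015) in knockdown cells, and its call was lost in 5 of the 15 fits that left out arrays, without knockdown replicate 1 of either day (-0.30 each), knockdown day 6 replicate 3 (-0.33), or replicate 1 (-0.24) or 3 (-0.37) of every group. Cyp26c1 rose by 0.30 in control cells (adjusted p = 0.0489), a call that held in 4 of those 15 fits, over a range of 0.21 to 0.37, and in 4 of 10 alternatives that kept all arrays, and it changed by 0.11 in knockdown cells.

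Among 9 factors that act on the Hox clusters or flank them, 0 passed in control cells, where 17.6% of all genes did, and in knockdown cells, where 17.9% did, 1 rose and 1 fell. Gdf11, a growth factor that sets the start of the tail-end Hox code, fell by 0.49 in knockdown cells (adjusted p = 0.00945), except without replicate 1 (-0.46) or 3 (-0.48) of every group, and changed by -0.19 in control cells. Evx2, the homeobox gene next to Hoxd13, rose by 0.29 in knockdown cells (adjusted p = 0.0354), and held in 8 of 15 fits that left out arrays, at 0.21 to 0.37 in all. Of 19 trithorax and Polycomb repressive complex 1 genes, which keep Hox genes on or off, 4 rose in control cells and 2 in knockdown cells, with 0 falling, against 6.99% and 7.46% of all genes called higher and 10.6% and 10.5% called lower. Cbx2 rose by 0.31 (adjusted p = 0.0117) and 0.45 (adjusted p = 0.00123), and Cbx7 by 0.22 (adjusted p = 0.0435) and 0.37 (adjusted p = 0.00326). Both encode chromodomain subunits of the repressive complex. In control cells Cbx2 held in 12 of 15 and Cbx7 in 3 of 15 fits that left out arrays, at 0.26 to 0.34 and 0.18 to 0.28, and in knockdown cells in 14 and 13 of 15. Pcgf2, another subunit, and Kdm6b, an eraser of the Polycomb histone mark, rose in control cells by 0.31 (adjusted p = 0.0227) and 0.22 (adjusted p = 0.0362) and held in 11 and 7 of 15 such fits. Of 11 alternatives that kept all arrays, Cbx2 passed in 10, Cbx7 in 5, Kdm6b in 7 and Pcgf2 in 11 in control cells, and Evx2 passed in 8 in knockdown cells.

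Of 32 other transcription factors that pattern the limb, trunk and face, 4 rose and 1 fell in control cells and 5 rose and 1 fell in knockdown cells, near the 17.6% and 17.9% of all genes called. Emx2, of the forebrain, kidney and shoulder blade, was 7.35, 7.29 and 7.42 at day 3 and 7.99, 7.98 and 8.01 at day 6 in control cells, and rose by 0.64 (adjusted p = 3.53e-05) there and by 0.38 (adjusted p = 0.00103) in knockdown cells, except without replicate 3 of every group (0.34). Tbx2, of the heart and limb, rose by 0.57 (adjusted p = 0.00296) and 0.54 (adjusted p = 0.0035). Without replicate 3 of every group Tbx2 did not pass in control cells (0.58), and without replicate 2 (0.41) or 3 (0.57) it did not pass in knockdown cells. Dlx2, of the jaw and the forebrain, fell by 0.61 (adjusted p = 0.0205) and 0.88 (adjusted p = 0.00248), the latter not without replicate 3 (-0.77). Meox2, of the somites and limb muscle, rose by 0.96 in control cells (adjusted p = 0.0351) and changed by 0.69 in knockdown cells (adjusted p = 0.12), where it passed with the replicate block (adjusted p = 5.12e-05). In control cells, Meox2 held in 9 of 15 and Dlx2 in 10 of 15 fits that left out arrays, at 0.73 to 1.18 and -0.72 to -0.44. The knockdown comparisons called 0 members of any of these 6 lists, where 0% of all genes were called at day 3 and 0.0392% at day 6.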

How the data were processed

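RNA from 12 samples was hybridised to Affymetrix mouse arrays. The deposited intensities per probe set were made by the authors with the RMA method, and the software was Affymetrix Expression Console (1.3.0.187), both as the submitters' processing notes have it. They ran from 4.71 to 13421, a linear scale, although log2 values had been planned for, so the log2 of each intensity was taken. Per the labels the molecule was polyA RNA while total RNA was extracted. The build and version of the array annotation, and scan dates, were not given in the sources used. A probe set named a gene where the platform annotation gave it a single symbol, which held for 23521 of 41345 (1814 named several genes, 16010 none). Of the 22180 genes, 1082 had several such probe sets, and the one with the highest mean over the 12 arrays was used. Kept were 17860 genes that reached their array's 30th percentile in at least 3 arrays. Arrays of a group correlated with a Pearson's r of 0.991 to 0.995, and precision is limited by how many arrays there are.

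The tests were two-sided and used limma 3.58.1 under R 4.3.3 (lmFit and eBayes, a mean per group, all 12 arrays, with 8 residual degrees of freedom). P-values were adjusted by Benjamini-Hochberg over all genes kept, with a threshold of 0.05. A gene is said to rise or fall only where it passed. SE belongs to a fitted log2 fold change, and intervals are at 95%. Levels of different probe sets are not comparable. Tables and figures used Python 3.11.15, pandas 2.3.3 and matplotlib 3.10.9. The fit was tested on simulated data with known changes.

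Replicate numbers recur in every group. With group means subtracted, arrays of equal number correlated above 0.1 in all 12 pairs (r 0.137 to 0.373). The labels do not say what the numbers stand for, and a pairing of samples and a shared processing step cannot be told apart. A fit with the replicate number as a block was therefore run beside the unblocked fit. Counts and p-values are from the unblocked fit unless another fit is named. Other alternatives were the filter, the probe set rule, the scaling, array weights, a variance trend, fewer groups in the fit, and leaving out each array or each replicate number, and a fit of all probe sets was added after the data were seen. The members, the 6 gene lists and the markers were chosen with earlier results of these data known. Named with values are all Hox genes that passed in any comparison, the 3 of smallest p where none passed, and up to 4 of each list that passed (or the 2 brightest). The sequences come from RefSeq tables.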

Additional observations from a re-analysis of the deposited data

Results flagged for a closer look

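The following 3 genes are given because all 3 same-number pairs were higher in knockdown than in control at day 3 and all 3 were lower at day 6. The share of all genes with this pattern is not given here, so the count of 3 cannot be set against a background. The test of the difference, made in limma over all genes, did not pass for any of them. For Hoxb6 the knockdown value was 0.28 at day 3 and -0.13 at day 6, a difference of -0.41 (SE 0.14, limma adjusted p = 0.918). For Hoxc6, a gene of the forelimb level, the values were 0.09 and -0.09, a difference of -0.17 (SE 0.09, limma adjusted p = 0.978). Its log2 intensity was 8.54, 8.48 and 8.64 in control and 8.59, 8.62 and 8.71 in knockdown arrays at day 3, and 8.72, 8.70 and 8.65 against 8.55, 8.63 and 8.63 at day 6. For Hoxb4 the values were 0.04 and -0.07, a difference of -0.11 (SE 0.13, limma adjusted p = 0.991).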

How the results depend on the processing

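The number of Hox genes that passed between the days depended most on which arrays were in the fit, and leaving out arrays also leaves fewer samples to estimate the spread. It was 2 to 7 in control cells and 2 to 8 in knockdown cells over the 15 fits that left out arrays, against 6 and 9 with all arrays. Over all genes, 3140 and 3200 of 17860 were called with all arrays. Without replicate 2 it was 1104 and 1427 of 17678, and without replicate 3 it was 1080 and 1069 of 17703. In these fits the loss of calls was therefore not particular to the Hox genes. The lowest Hox counts were 3 and 2 in control cells without replicates 1 and 2, and in knockdown cells 5 without day 6 replicate 1 or day 3 replicate 3, 2 without replicate 2 and 4 without replicate 3. Over all genes in knockdown cells, 2586 of 17830 were called without knockdown day 6 replicate 1. Without knockdown day 3 replicate 3 it was 2293 of 17833. Whether Hox genes lost a larger share there was not tested. With the replicate block the Hox counts were 8 and 11, with 3367 and 3509 of all genes called. The block added Hoxb4 and Hoxd8 in control cells and Hoxc8 and Hoxd9 in knockdown cells. Over the alternatives that kept all arrays the Hox counts were 5 to 8 and 6 to 11, lowest in control cells with arrays centred on their median (5) and in knockdown cells with all probe sets fitted (6). The knockdown comparisons and the test of the difference between days gave 0 Hox genes under every alternative run, the replicate block included. No Hox gene that passed between the days changed direction in that comparison under any of them, while among genes that did not pass some signs turned: 7 to 9 of the 9 HoxA genes were higher at day 6 in knockdown cells over the settings run, and 2 to 5 of the 10 HoxB genes in control cells. The bright probe sets of Hoxa6, Hoxa7, Hoxc6 and Hoxc8 lie well above the array medians. Near or below them lie Hoxa13, Hoxb8, Hoxb13, Hoxc5, Hoxc11, Hoxc13, Hoxd1, Hoxd9, Hoxd11, Hoxd12 and Hoxd13.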

Other observations

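Hoxc9, a trunk gene, had with Hoxb6 and Hoxc6 the smallest p for the difference between days of the knockdown effect. Its log2 intensity was 7.16, 7.13 and 7.09 in control and 7.11, 7.30 and 7.21 in knockdown arrays at day 3, and 7.22, 7.13 and 7.25 against 7.20, 7.09 and 7.10 at day 6. The hairpin groups overlapped on both days, and the difference was -0.15 (SE 0.09, limma adjusted p = 0.99). At paralogue position 13 the 4 genes Hoxa13, Hoxb13, Hoxc13 and Hoxd13 did not pass in any comparison. Their means over the 12 arrays were 5.41, 5.18, 5.44 and 5.15, near or below the array medians.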
